A study of Homo sapiens with 6 samples.

Results

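The kinases described here phosphorylate lipids or the small molecules from which lipids are built. They are the sphingosine kinases SPHK1 and SPHK2, the ceramide kinase CERK, the acylglycerol kinase AGK, the choline kinases CHKA and CHKB, the ethanolamine kinases ETNK1 and ETNK2, and the mevalonate kinase MVK with the next kinase of its pathway, PMVK. They were taken from an siRNA screen by the locus identifier of each library well. All 10 genes were found, on 1 well each, among the 939 library wells and 925 distinct genes of the screen. AGK is listed in the deposited table as FLJ10842, ETNK1 as EKI1 and ETNK2 as FLJ10761.

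The screen used SUM149PT, an established cell line of triple-negative inflammatory breast cancer, and asked which gene's loss adds to the effect of eicosapentaenoic acid (EPA), an omega-3 polyunsaturated fatty acid. The 3 EPA samples were cells given siRNA at 45 nM for 48 hours and then EPA at 50 µM, which the labels call an IC50, for 72 hours more. The 3 untreated samples received the same siRNAs without EPA. EPA values are given below in the order of columns 4, 5 and 6 of the deposited table and untreated values in that of columns 1, 2 and 3. Wells were seeded with 750 cells, and at the end a resazurin dye, which living cells turn into a fluorescent product, was read on a plate reader. Both groups are 1 cell line, and the labels do not say whether the samples were separate cultures, so the spread behind each p-value may be purely technical. A lower reading can mean fewer cells or less dye turned over per cell, and the assay cannot tell these apart. The loss of each target was not measured in the data used here, and each gene rests on a single well position.

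Sphingosine kinases make sphingosine 1-phosphate, a lipid that promotes growth and survival and acts inside cells and through its own receptors, while ceramide, the precursor on the other side of this balance, is tied to cell death. Choline and ethanolamine kinases take the first step in making phosphatidylcholine and phosphatidylethanolamine, the main membrane phospholipids, and choline kinase alpha is often raised in breast cancers. MVK and PMVK act one after the other in the mevalonate pathway, which leads to cholesterol and to the lipid groups that anchor some signalling proteins in membranes. These are background facts and not results of the screen.

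EPA left 42.3% of the median signal in cells alone and 44.7% with the negative control siRNA. OTP3, the negative control siRNA of the labels, had a median of 21951 ± 4049 units with EPA and 49147 ± 1644 units untreated, and cells alone had 21651 ± 3070 with EPA and 51168 ± 625 untreated (SD, n = 3 each). Blank wells averaged 3888 ± 28.9 units with EPA and 3738 ± 40.5 untreated, which is the floor of the scale. The median library siRNA stood at 13565 ± 1404 units with EPA and at 22991 ± 1184 untreated. Across library wells, log2 values correlated at r of 0.909 to 0.943 among EPA samples and 0.902 to 0.921 among untreated samples. These are correlations across wells that share plates and positions, and wells are not replicates.

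Levels below are log2 values relative to the median library well of the same plate and sample, so 0 is the middle of the library, and the difference is the EPA mean minus the untreated mean. limma's test was fitted to all 939 library wells with Benjamini-Hochberg adjustment, and a well was called at an adjusted p under 0.05. In this difference 1 of the 10 wells was lower with EPA, against 15.2% of all library wells, and 3 were higher, against 29.0%. The 10 wells ranged from -1.03 to 0.89 with a median of 0.07, beside a median of 0.20 over all library wells. As a group the 10 wells were therefore near the background of the screen, and what follows concerns single genes.

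MVK, the kinase that phosphorylates mevalonate, was the 1 well called lower in the difference. It read 11967, 9776 and 9242 units in the EPA samples, against 37088, 30600 and 36993 in the untreated samples. Every EPA value lay below every untreated value, with 29.6% ± 3.00 (SE) of the signal left, the smallest share among the 10 genes. After subtraction of the blank wells 20.6% was left. Relative to the library median MVK stood at -0.52 with EPA and at 0.50 untreated, and both levels passed limma's test (adjusted p = 0.000975 and 0.00154). After median polish the levels were 0.10 with EPA, which did not pass (adjusted p = 0.501), and 0.84 untreated (2.32e-05). The well stood at 46.7% ± 3.86 of the OTP3 median of its plate with EPA and at 66.3% ± 5.63 untreated (SD, n = 3). The difference was -1.03 (SE 0.146, limma adjusted p = 0.000909), the 43rd lowest of 939.

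The MVK difference passed under all 16 alternatives that refit it on the log2 scale, with limma adjusted p from 0.000242 to 0.0337. Its size changed with the scaling. It was -1.34 after blank subtraction (limma adjusted p = 0.000801), -0.74 after median polish, which removes row and column medians of each plate (0.00336), and -0.51 when OTP3 took the place of the library median (0.0337). Centred on the control wells of the same plate row, a scaling chosen after seeing the data, it was -0.52 (0.0255). Centring on OTP3 moved the median of all library wells to 0.63 and centring on same-row controls moved it to 0.53, and only 6.28% and 6.92% of library wells were called lower there. Among the 19 other library wells of its row, 1 had a lower difference. That well carried STK26, a kinase of the STE20 group listed as MST4, at -1.19. In level, 9 of those 19 wells stood lower than MVK with EPA and 15 untreated.

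PMVK, which adds the next phosphate in the same pathway, read 10305, 8385 and 7489 units with EPA, against 18161, 18956 and 14891 untreated, so 50.3% ± 6.0 (SE) was left and the groups did not overlap. That raw share was close to the 44.7% kept by the OTP3 median, also raw. After subtraction of the blank wells 35.4% was left for PMVK, and the same share for OTP3 was not computed. Relative to the library PMVK was at -0.77 with EPA and at -0.51 untreated, lower in both (limma adjusted p = 0.000134 and 0.00258). After median polish the level was -0.10 with EPA, which did not pass (adjusted p = 0.485), and -0.55 untreated, which did (0.00113). The difference of -0.26 did not pass (95% interval -0.62 to 0.10, limma adjusted p = 0.211), and its sign changed with the scaling. Median polish gave 0.45 (adjusted p = 0.0562), and blank subtraction gave -0.58 (0.0787). With the difference centred on each plate PMVK was called lower, at -0.47 (adjusted p = 0.0474), where 20.7% of library wells were. The 2 wells of the pathway shared plate 2 but not a row, with MVK in row 13 and PMVK in row 4. Within samples MVK exceeded PMVK by 0.25 ± 0.0491 log2 units with EPA and by 1.01 ± 0.311 untreated (SD, n = 3), a change of -0.76 ± 0.182 (SE), and after median polish the change was -1.19 ± 0.18 (SE).

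**Figure D1:**
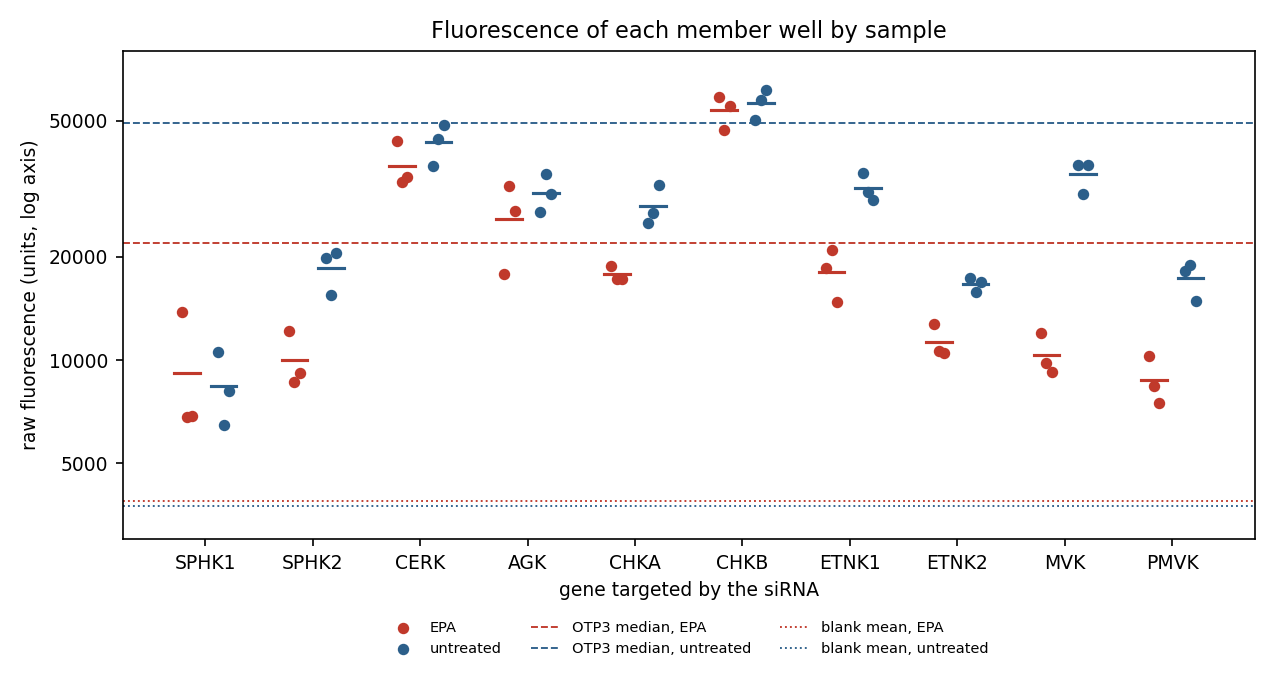
Raw fluorescence (log axis) of the well of each of the 10 genes, with EPA samples in red left of untreated samples in blue; points are samples, short bars are means, dashed lines are OTP3 medians and dotted lines blank means of each group. MVK read 9242 to 11967 units with EPA and 30600 to 37088 untreated, while the SPHK1 readings of the groups overlap.

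SPHK1 was the well with the highest difference, and it was low without EPA. SPHK1 read 13808, 6807 and 6882 units with EPA, against 10526, 6464 and 8141 untreated. The raw groups overlapped, with 109% ± 31.7 (SE) of the signal left, but the log2 values relative to the library did not overlap. With EPA the well stood at -0.40 relative to the library, which did not pass (limma adjusted p = 0.0669), and at 45.9% ± 17.2 (SD, n = 3) of OTP3. That level moved with 1 sample: it was -0.70 and called lower without EPA replicate 4 (adjusted p = 0.0029), and -0.20 without EPA replicate 5 (0.407). It was also called lower after quantile normalization (-0.64, adjusted p = 0.00334), with OTP3 centring (-1.18, 2.55e-05) and with robust z-scores (adjusted p = 0.0483). Untreated it stood at -1.29 (adjusted p = 0.000126), the 75th lowest of 939, and at 18.4% ± 3.81 of OTP3. The difference was 0.89 (SE 0.256, limma adjusted p = 0.0185), the 26th highest of 939.

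The SPHK1 wells lay near the floor, at 2.36 times the blank mean of the plate with EPA and 2.24 times untreated. Lower readings did occur on the screen: the well of the diacylglycerol kinase DGKQ, on plate 1, read 5005, 4641 and 6493 units with EPA. Whether the floor limited the loss read for SPHK1 was not tested. After blank subtraction the difference was 1.15 and no longer passed (limma adjusted p = 0.0762), nor did it without untreated replicate 2 (0.78, adjusted p = 0.0596) or with the difference centred on each plate (0.63, 0.0819). Without EPA replicate 4, the highest SPHK1 reading, it was 0.59 and passed (adjusted p = 0.0395). After median polish it passed at 0.87 (adjusted p = 0.00252), and centred on same-row controls at 1.84 (0.00148). In its row all 19 other library wells had a lower difference, and 0 of the 19 had a lower level untreated.

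SPHK2, the other sphingosine kinase, read 12154, 8648 and 9168 units with EPA, against 19909, 15447 and 20530 untreated. Its raw readings did not overlap, though its log2 values relative to the library did, and 53.6% ± 7.46 (SE) of the signal was left. Its levels of -0.21 with EPA and -0.12 untreated did not pass limma's test (adjusted p = 0.136 and 0.403), and neither did the difference of -0.09 (95% interval -0.47 to 0.29, adjusted p = 0.67). With quantile normalization both levels were called lower, at -0.43 and -0.34 (adjusted p = 0.00964 and 0.0305). After median polish the levels were 0.38 with EPA and 0.72 untreated, both past the threshold (adjusted p = 0.0247 and 0.000351), and the difference was -0.34 (0.188). Centred on same-row controls the difference was 0.86 and passed (adjusted p = 0.0129). In that row cells alone kept 25.7% of their signal, in 1 well. That centring also uses the OTP3 wells of the row, and whether the control level accounts for the call was not tested.

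SPHK1 and SPHK2 were 2 columns apart in row 9 of plate 3, so they shared the plate median and the row but not the column. SPHK1 was below SPHK2 by 0.35 and 0.41 log2 units in EPA samples 5 and 6 and above it by 0.18 in EPA sample 4, against gaps of -0.92, -1.26 and -1.33 in the untreated samples. The mean gap was -0.19 ± 0.327 with EPA and -1.17 ± 0.221 untreated (SD, n = 3). The change of 0.98 ± 0.228 (SE) showed no overlap between groups, and after median polish the change was 1.21 ± 0.234 (SE). SPHK2 stood at 2.57 times the blank mean of the plate with EPA and 4.97 times untreated, while SPHK1 was near the floor in both groups. Whether the floor limited the gap with EPA was not tested.

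CERK makes ceramide 1-phosphate from ceramide. It read 43489, 33119 and 34241 units with EPA, against 36968, 44057 and 48612 untreated. The raw groups overlapped, though the log2 values relative to the library did not, and 85.5% ± 10.1 (SE) was left. Relative to the library CERK was at 1.29 with EPA and 0.83 untreated (limma adjusted p = 8.28e-07 and 2.53e-05), and the difference of 0.46 was called higher (SE 0.132, adjusted p = 0.0187). The well sat in row 1 of plate 1, the plate edge, where cells alone kept 92.2% of their signal, in 1 well. After median polish the level was 0.33 with EPA (adjusted p = 0.0227) and 0.15 untreated, which did not pass (0.282), and centred on same-row controls both levels were lower, at -0.51 and -0.47 (0.0029 and 0.00318). The difference after median polish was 0.17 (adjusted p = 0.433), and centred on same-row controls it was -0.03 (0.884). Without untreated replicate 1 it also missed the threshold (0.35, adjusted p = 0.0603).

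AGK makes lysophosphatidic acid from monoacylglycerol and works in mitochondria. It read 17801, 32227 and 27294 units with EPA, against 26981, 34996 and 30487 untreated, with overlapping groups and 83.6% ± 15.1 (SE) left. The low first EPA value gave AGK the second widest interval among the 10 genes. Its level of 0.74 with EPA was higher than the library median (limma adjusted p = 0.00319), and that of 0.35 untreated did not pass (0.102). The difference of 0.39 did not pass (95% interval -0.16 to 0.95, adjusted p = 0.222), but without EPA replicate 4 it was 0.71 and did (adjusted p = 0.00788), and without EPA replicate 5 it was 0.17 and did not (0.605). It was 0.31 after median polish (adjusted p = 0.294) and 0.67 centred on same-row controls (0.0674), and with OTP3 centring 0.78, which passed (0.031). On same-row controls the level was -0.09 with EPA (adjusted p = 0.709) and -0.76 untreated (0.00427).

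The choline kinases were both on the edge row that held CERK. CHKB read 58594, 47048 and 55334 units with EPA, against 50246, 57293 and 61485 untreated. Its raw readings overlapped, though its log2 values relative to the library did not, and 95.2% ± 8.24 (SE) was left. It was the highest of the 10 wells in both groups, at 1.83 with EPA (limma adjusted p = 1.02e-07), 13th from the top of 939, and at 1.22 untreated (1.26e-06), 10th from the top. The difference was 0.61 (SE 0.121, adjusted p = 0.00345). After median polish it was 0.12 and did not pass (adjusted p = 0.562), and centred on same-row controls it was again 0.12 (0.467). On that last scale CHKB itself stood at 0.04 with EPA and -0.09 untreated, neither past the threshold (adjusted p = 0.743 and 0.405).

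CHKA, the choline kinase isoform most studied in tumours, gave a different reading from the same row. It read 18868, 17241 and 17281 units with EPA, against 25123, 26905 and 32455 untreated. These raw readings did not overlap, though the log2 values relative to the library did. Of the signal 63.2% ± 5.31 (SE) was left, where cells alone in the row kept 92.2%. Relative to the plate's library median CHKA was at 0.25 with EPA and 0.22 untreated, and neither passed (limma adjusted p = 0.0605 and 0.0961). With quantile normalization CHKA was called higher with EPA (0.35, adjusted p = 0.0183) and untreated (0.35, 0.0192). After blank subtraction it was called higher with EPA (0.32, adjusted p = 0.0469). Of the 19 other library wells in its row, 4 were lower than CHKA with EPA and 6 untreated. After median polish it stood at -0.72 with EPA and at -0.44 untreated, both past the threshold (adjusted p = 0.000199 and 0.00952), and centred on same-row controls at -1.55 and -1.09 (1.63e-06 and 1.50e-05). The difference was 0.03 (95% interval -0.31 to 0.37, adjusted p = 0.886), with -0.29 after median polish (adjusted p = 0.245) and -0.46 centred on same-row controls (0.0593). In the row 1 of those 19 wells had a lower difference than CHKA.

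The gap between the choline kinases was present in every sample. CHKA lay below CHKB by 1.64, 1.45 and 1.68 log2 units with EPA, against 1.00, 1.09 and 0.92 untreated. The mean gap was -1.59 ± 0.122 with EPA and -1.0 ± 0.0844 untreated (SD, n = 3), and the change of -0.58 ± 0.0859 (SE) had no overlap between groups. The wells were 2 columns apart in the same row, and after median polish the change was -0.41 ± 0.146 (SE).

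**Figure D2:**
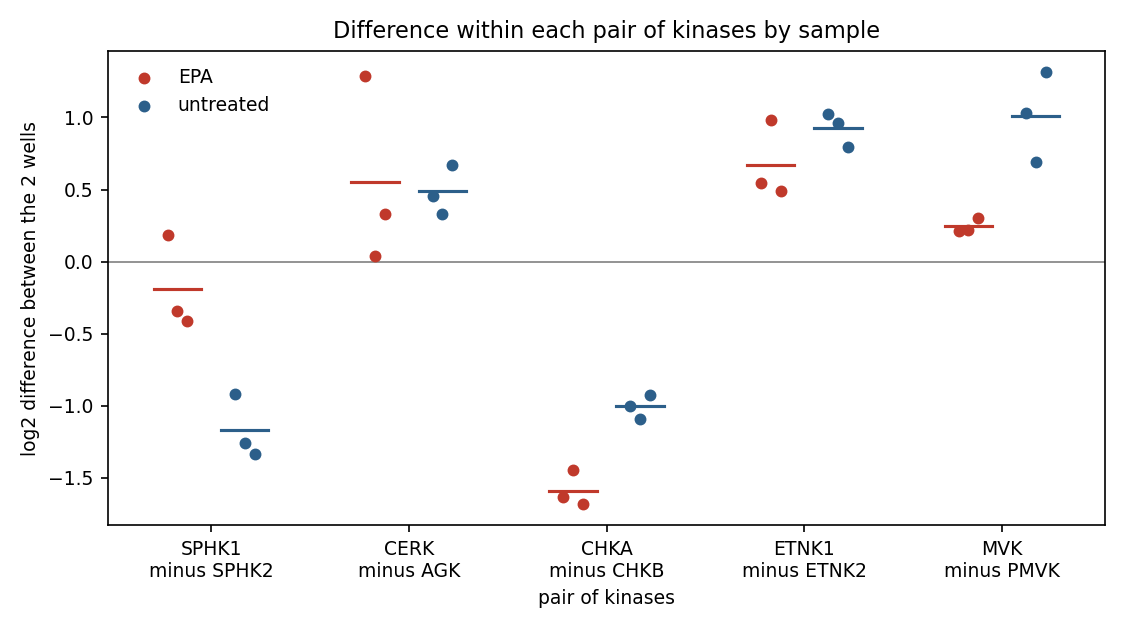
Log2 difference between the wells of each pair of kinases within each sample, EPA samples in red left of untreated samples in blue, with bars at the means. The groups do not overlap for SPHK1 minus SPHK2, CHKA minus CHKB and MVK minus PMVK, and they overlap for CERK minus AGK and ETNK1 minus ETNK2. The share of other library pairs without overlap was not computed.

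ETNK1 read 18554, 21017 and 14731 units with EPA, against 35139, 30875 and 29419 untreated. Its raw readings did not overlap, though its log2 values relative to the library did. It kept 56.9% ± 6.52 (SE), beside 54.8% for cells alone in its row. Its level was 0.26 with EPA, which did not pass (limma adjusted p = 0.0732), and 0.40 untreated, which was higher than the library median (0.0125) but not without untreated replicate 1 (0.32, adjusted p = 0.0874). After median polish the level with EPA passed (0.30, adjusted p = 0.0307) and the untreated level did not (0.16, 0.244). Centred on same-row controls both levels were lower, at -0.49 and -0.60 (adjusted p = 0.00718 and 0.0015). The difference was -0.14 (95% interval -0.51 to 0.23, adjusted p = 0.512), with 0.14 after median polish (0.53) and 0.11 centred on same-row controls (0.656). ETNK2 read 12721, 10626 and 10479 units with EPA, against 17309, 15821 and 16938 untreated, with 67.6% ± 4.70 (SE) left and no overlap. It was below the library median in both groups, at -0.42 with EPA and -0.53 untreated (adjusted p = 0.00355 and 0.000953), but after median polish at 0.21 and 0.01, where neither passed (0.116 and 0.944). The ETNK2 difference was 0.11 (95% interval -0.21 to 0.43, adjusted p = 0.538), with 0.20 after median polish (0.344) and 0.39 centred on same-row controls (0.105). With OTP3 centring it was 0.50 and was called higher (adjusted p = 0.0467), where 58.1% of library wells were. Against the library median, neither ethanolamine kinase well thus showed a change with EPA, within intervals that leave room for about 0.5 log2 units.

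ETNK1 exceeded ETNK2 by 0.67 ± 0.27 log2 units with EPA and by 0.93 ± 0.117 untreated (SD, n = 3), with overlapping groups, and after median polish by 0.09 and 0.15. CERK exceeded AGK by 0.55 ± 0.654 with EPA and 0.49 ± 0.173 untreated, also with overlap. In the 5 pairs compared, the exact permutation test (two-sided) gave p = 0.1 for the sphingosine, choline and mevalonate pairs, which is the smallest that 3 samples against 3 allow, 0.3 for the ethanolamine pair and 1 for CERK and AGK. The Benjamini-Hochberg values over the 5 were 0.167, 0.375 and 1, so no pair could pass at 0.05 by this test with 3 samples a group. The same 3 pairs were free of overlap after median polish. How often other pairs of library wells are free of overlap was not computed, so the count cannot be read as particular to these kinases.

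Against the library median, 3 of the 10 wells were lower and 3 higher with EPA, against 37.0% and 36.4% of all library wells. Untreated, 3 were lower and 4 higher, against 35.6% and 33.9%. The lower ones were ETNK2, MVK and PMVK with EPA and SPHK1, ETNK2 and PMVK untreated. CERK and CHKB were higher in both groups on this scale. Set against OTP3 in place of the library, 7 were lower and 2 higher with EPA, where 64.6% and 13.5% of library wells were, and 9 were lower untreated, where 91.8% were. CHKB was the one that did not pass against OTP3 untreated (0.14, limma adjusted p = 0.167).

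The signal left with EPA in cells alone differed between the rows that held these wells. Cells alone kept 92.2% of their signal in row 1 of plate 1, which held CERK, CHKA and CHKB, but 52.7% in row 4 (AGK and ETNK2) and 54.8% in row 14 (ETNK1). On plate 2 they kept 45.8% in row 4 (PMVK) and 48.9% in row 13 (MVK), and on plate 3 25.7% in row 9 (SPHK1 and SPHK2). These shares rest on 1 or 2 wells a row. On raw readings, without blank subtraction, CHKA and MVK kept less than cells alone of their own rows by more than their SE. CERK kept less by under 1 SE. The other 7 kept more, but CHKB, PMVK and ETNK1 did so by under 1 SE. Of the 3 wells called higher in the difference, CERK and CHKB were in the row with 92.2%, as was CHKA, which was not called, and SPHK1 was in the row with 25.7%. With median polish 1 of the 10 wells, MVK, was lower in the difference, where 14.1% of library wells were, and 1, SPHK1, was higher, where 16.3% were.

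**Figure D3:**
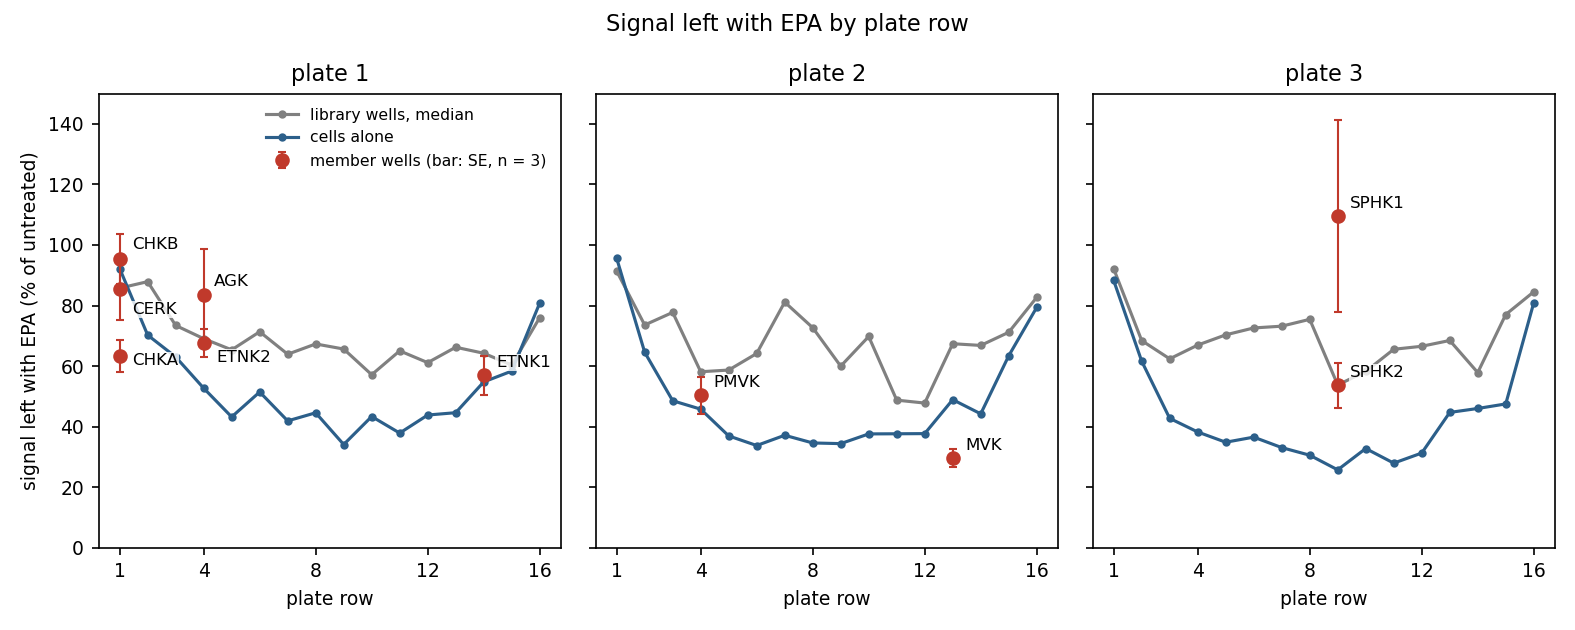
Signal left with EPA, as a percent of the untreated signal, by plate row on the 3 plates: cells alone (blue), the median library well (grey) and the wells of the 10 genes (red, bars SE, n = 3). CHKB and CERK lie near the curve of cells alone at the edge row, and MVK at 29.6% lies below it.

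**Figure D4:**
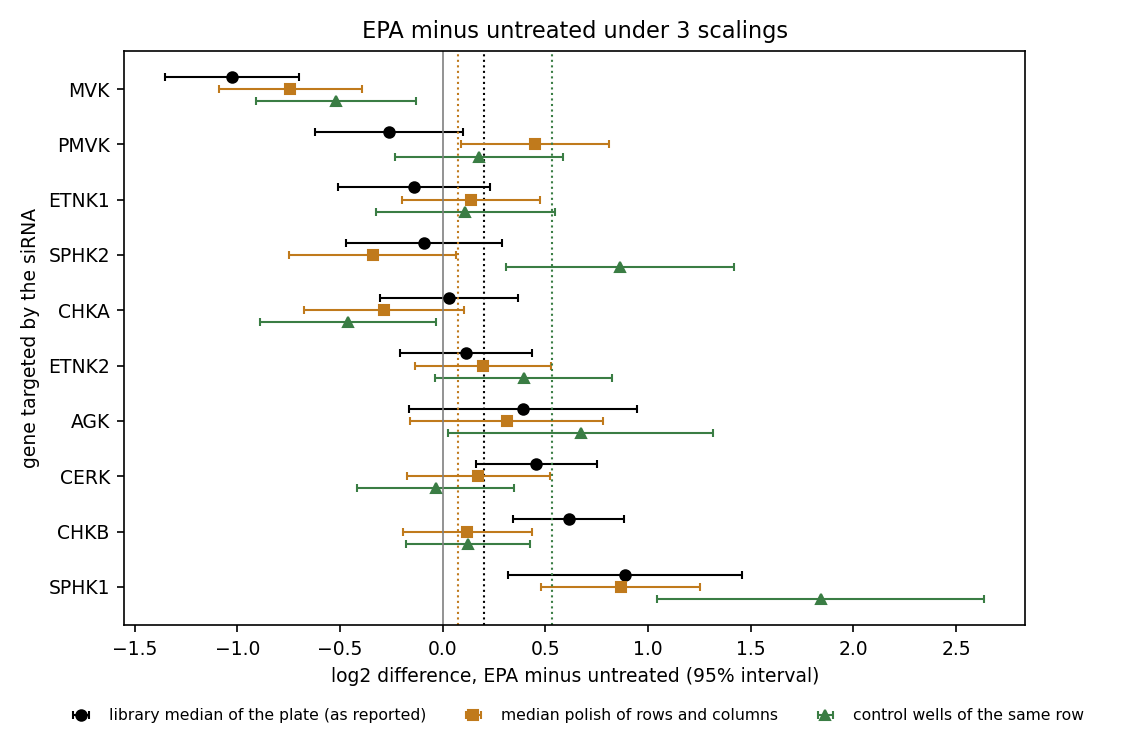
Log2 difference, EPA minus untreated, with its 95% interval, for each gene under the reported scaling (black), median polish (orange) and control wells of the same row (green); dotted lines mark the median of all library wells under each. MVK lies below 0 and SPHK1 above 0 under all 3, while CERK and CHKB move toward 0 when the row is taken into account.

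The receptors of the lipids that these kinases make were on the same screen. All 5 sphingosine 1-phosphate receptors were measured, in row 4 of plate 3. S1PR1, listed as EDG1, was lower in the difference, at -0.65 (SE 0.153, limma adjusted p = 0.00765), with 7651, 7647 and 7278 units with EPA, against 19625, 20269 and 22463 untreated. Its EPA readings were close to the blank mean of 3888, and after blank subtraction the difference was -1.11 (adjusted p = 0.00309). S1PR5 was higher at 0.78 (adjusted p = 0.0113), from 20985, 13517 and 11060 units with EPA, against 16972, 13800 and 14248 untreated, which overlap. That call was lost with the difference centred on each plate (0.52, adjusted p = 0.0687) and when median polish followed blank subtraction (0.66, 0.0963). S1PR2 (0.19), S1PR3 (0.24) and S1PR4 (-0.10) did not pass (adjusted p = 0.383, 0.376 and 0.608). When median polish followed blank subtraction, S1PR1 and S1PR4 were called lower (-0.95 and -0.76, adjusted p = 0.0215 and 0.0336), where 14.4% of library wells were. Centred on same-row controls 0 of the 5 were lower and 4 higher, where 6.92% and 53.0% of library wells were. With OTP3 centring S1PR1 stood at -0.26 and did not pass (adjusted p = 0.258), and 3 of the 5 receptors were higher, where 58.1% of library wells were.

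Of 6 receptors of lysophosphatidic acid, the product of AGK, 3 were measured, and all 3 were called, where 44.2% of library wells were called in either direction. LPAR1, listed as EDG2, was the lowest, with 6467, 6392 and 9167 units with EPA, against 43510, 37089 and 36996 untreated, and a difference of -1.62 (adjusted p = 0.000549). LPAR2 (0.80, adjusted p = 0.0131) and LPAR3 (0.80, 0.00296) were higher relative to the library, but the raw readings of each overlapped between groups. LPAR2 read 19665, 19920 and 18578 units with EPA, against 26604, 12320 and 22808 untreated. LPAR3 read 7876, 6548 and 6406 with EPA, against 6691, 6775 and 7412 untreated. Those LPAR3 readings were close to the blank means of 3888 with EPA and 3738 untreated, and the EPA readings of LPAR1 were about as low. After blank subtraction the LPAR1 difference was -2.33 (adjusted p = 0.00111). The LPAR2 and LPAR3 calls were kept after median polish and lost when blank subtraction was added to it. With the difference centred on each plate LPAR1 was still lower (-1.88, adjusted p = 0.000152) and LPAR3 higher (0.54, 0.0207), where 131 of the 939 library wells were higher, but LPAR2 was not called (0.54, 0.0738). CERT1, which carries ceramide to the Golgi and is listed as COL4A3BP, was at 0.22 and did not pass (adjusted p = 0.204). Of 10 diacylglycerol kinases, relatives of CERK and AGK, 8 were measured. In the difference limma called 0 of the 8, against 15.2% of library wells lower and 29.0% higher, and 1 was at an unadjusted p under 0.05, as were 53.0% of library wells. They ran from -0.41 for DGKI (adjusted p = 0.0854) and -0.35 for DGKA to 0.32 for DGKD and for DGKB. Blank subtraction called 1 lower, DGKQ at -1.36 (adjusted p = 0.0427), where 16.5% of library wells were lower. Centring the difference on each plate also called 1 lower, DGKI at -0.55 (adjusted p = 0.0358). With OTP3 centring 3 of the 8 were called higher and centred on same-row controls 4, where 58.1% and 53.0% of library wells were.

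The library wells with readings most like those of MVK, by Euclidean distance over the 6 log2 values, carried SRC, a tyrosine kinase of adhesion and growth signalling (distance 0.226), STK26 (0.397) and PDK1, a kinase that inhibits pyruvate dehydrogenase (0.421). SRC stood at -0.58 with EPA and 0.42 untreated, beside -0.52 and 0.50 for MVK. For SPHK1 the nearest were DGUOK, a mitochondrial deoxyguanosine kinase (0.581), the complement gene C3 (0.744) and ACKR5, a receptor listed as ADMR (0.812). In the EPA samples SPHK1 spread from -0.81 to 0.20, and whether this accounts for its greater distances was not tested.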

How the data were processed

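Per the file headers, the table that the authors deposited holds raw fluorescence intensity for 1152 wells on 3 plates. The sources used here do not give any background subtraction or position correction. The columns name the group and run from 1 to 6 through both groups, so they were tied to a group and not to a numbered sample. They are called EPA replicates 4 to 6 and untreated replicates 1 to 3. Symbols were updated by locus identifier through a RefSeq table (assembly GRCh38.p14), in which 933 of the 939 library wells matched.

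Intensities were expressed as log2 of the ratio to the library median of their plate and sample, without a pseudocount or a low-signal filter. limma 3.58.1 in R 4.3.3 fitted 1 mean per group over all 6 samples (trend and robust options, two-sided), and the fit was tested on simulated data. Single quantities had an exact permutation test. The precision is limited by 3 samples a group.

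The 10 genes, the related lists and the tests were chosen with earlier results of these data known. All 10 are named, with all measured receptors and CERT1, the 2 lowest and 2 highest diacylglycerol kinases, and the 3 nearest wells of the members with the lowest and highest difference. Alternatives were other centrings, subtraction of the blank mean (floor at 3 SDs of the blanks), median polish, other scales, filters, variance models and thresholds, and leaving out each replicate. Centring on the cells-alone and OTP3 wells of the same row was chosen after seeing the data. The 21 wells without siRNA were left out.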

Additional observations from a re-analysis of the deposited data

How the results depend on the processing

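The 3 samples a group, the 1 well position per gene and the blank level limit these results. SPHK1 in both groups was close to blank wells, and PMVK, ETNK2, MVK and SPHK2 were with EPA, so the size of their losses depends on the background. No paired analysis was possible because the columns carry numbers that cannot be tied to the replicate numbers of the labels. SPHK1 was removed by the low-signal filter, and CERK, CHKA and CHKB by leaving out edge wells, so those settings give no value for them.

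In EPA minus untreated, the count of higher genes was 3 and became 5 with OTP3 centring, 1 with median polish, with and without blank subtraction, 1 with robust z-scores, quantile normalization, an adjusted p under 0.01 or no edge wells, and 1 with the difference centred on each plate, where 2 genes, MVK and PMVK, were lower. Leaving out 1 replicate at a time gave 1 lower gene each time and 2 to 4 higher. With EPA 3 genes were lower and 3 higher. OTP3 centring gave 7 lower (64.6% of all library wells), same-row controls 6 lower and 0 higher (68.2% and 6.82%), median polish 1 lower and 5 higher (30.1% and 30.4%), also with blank subtraction (30.9% and 29.4%), and quantile normalization 5 higher (36.4%). Without 1 replicate 3 to 5 were lower and 3 or 4 higher. Untreated, 3 were lower and 4 higher. OTP3 centring and same-row controls each gave 9 lower and 0 higher (91.8% and 0.532% of all library wells for OTP3, 94.5% and 0.213% for same-row controls), median polish 2 higher (26.0%), also with blank subtraction (207 of 939 wells), and leaving out replicates 3 lower and 3 to 5 higher. OTP3 and same-row centring change the level called 0. For the other changes the cause was not tested.

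The following values changed sign. For the difference, OTP3 centring gave SPHK2 0.30, ETNK1 0.25 and PMVK 0.26. Same-row controls gave SPHK2 0.86, CERK -0.034, CHKA -0.46, ETNK1 0.11 and PMVK 0.18. Median polish gave CHKA -0.29, ETNK1 0.14 and PMVK 0.45, and with blank subtraction CHKA -0.17, ETNK1 0.30 and PMVK 0.40. Centring the difference gave CHKA -0.11 and ETNK2 -0.030, and robust z-scores gave CHKA -0.028. Leaving out replicates gave CHKA from -0.049 to 0.14 and SPHK2 from -0.20 to 0.033. For the level with EPA, OTP3 centring gave CHKA -0.45 and ETNK1 -0.44. Same-row controls gave CERK -0.51, AGK -0.090, CHKA -1.55 and ETNK1 -0.49. Median polish gave SPHK1 0.044, SPHK2 0.38, CHKA -0.72, ETNK2 0.21 and MVK 0.10, and with blank subtraction SPHK2 0.65, CHKA -0.70, ETNK2 0.31 and MVK 0.14. For the level untreated, OTP3 centring gave CERK -0.25, AGK -0.73, CHKA -0.87, ETNK1 -0.68 and MVK -0.60. Same-row controls gave CERK -0.47, AGK -0.76, CHKA -1.09, CHKB -0.086, ETNK1 -0.60 and MVK -0.53. Median polish gave SPHK2 0.72, CHKA -0.44 and ETNK2 0.011, with blank subtraction SPHK2 0.91 and CHKA -0.52, and leaving out edge wells SPHK2 0.030. The change in CERK minus AGK was -0.14 after median polish. Of 578 single values set beside an alternative, 462 kept their direction and side of the threshold. The 578 include stricter thresholds on the reported fit and fits in which the value itself could not change. An example is an untreated level without an EPA replicate, so the count overstates stability.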
